A study of Mus musculus with 18 samples.

Results

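The genes described here, 10 of the 55291 gene symbols in the deposited files, act in the storage of glycogen and in the metabolism and transport of lactate and glucose. They were chosen by symbol: the glycogen enzymes Gys1, Gbe1, Pygb and Pygm, the lactate dehydrogenase subunits Ldha and Ldhb, the monocarboxylate transporters Slc16a1, Slc16a3 and Slc16a7, and the glucose transporter Slc2a1. All 10 symbols were listed in the files of all 18 libraries, and 9 had counts in every library. RNA was sequenced from the right hippocampus of wild-type male C57BL/6J mice that were 6 weeks old at AAV injection, in a model of mesial temporal lobe epilepsy. Every group, controls included, carried an AAV, injected into the right CA3 region, whose astrocytic GfaABC1D promoter drives EGFP-Rpl10a, a ribosomal protein with a fluorescent tag. The AAV control group had no further injection and was collected 2 weeks later. The KA group received kainic acid, an excitotoxic glutamate receptor agonist, in the right dentate gyrus 2 weeks after the AAV and was collected 14 days after KA, and thus later after the AAV than the AAV control group. The PBS group received AAV and then PBS. Each group had 3 samples, each a pool of 3 to 4 hippocampi, and each sample gave an input library of the whole homogenate and an IP library of the RNA that was pulled down with the tagged ribosomes.

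In the brain, glycogen is stored mainly in astrocytes. Glycogen synthase (Gys1) and the branching enzyme (Gbe1) build it, and the brain and muscle forms of glycogen phosphorylase (Pygb and Pygm) break it down. Lactate dehydrogenase is a tetramer of A subunits (Ldha), which are associated with the conversion of pyruvate to lactate, and B subunits (Ldhb), which are associated with the conversion of lactate to pyruvate. Lactate crosses membranes through monocarboxylate transporters, of which MCT1 (Slc16a1) is known from astrocytes, oligodendrocytes and endothelium, MCT4 (Slc16a3) from astrocytes and MCT2 (Slc16a7) from neurons. GLUT1 (Slc2a1) carries glucose across brain endothelium and into astrocytes.

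Depth was between 7991681 and 16032180 counts per library. The labelled cell type was checked against 9 astrocyte markers. All of them were higher in IP than in input in the AAV control group (median log2 fold change 3.25) and in the KA group (median 1.57). In the KA group 7 of 7 oligodendrocyte markers were also higher in IP (median 1.48), against 0 of 7 in AAV control (median -0.31). Neuron markers were lower in IP, for 8 of 8 in AAV control and for 6 of 8 in KA. The astrocyte markers summed to between 3193 and 4145 FPKM in AAV control IP and to between 5166 and 6134 in KA IP. Most single markers did not follow this sum: in KA IP 4 of 9 were lower and 2 higher than in AAV control (median log2 fold change -0.49), and 3 were lower and 1 higher than in PBS (median -0.28). FPKM is the count scaled to the length of the gene and to the total of the library, so it can be compared between genes. AAV control sample #3 stood apart from #1 and #2 in glycolysis: 16 glycolysis genes summed to 9273 FPKM in its IP library against 4644 and 3663, and to 4307 FPKM in its input library against 1602 and 1334. KA and AAV control samples #1 and #2 were sequenced in run 1 and #3 in run 2, whereas the PBS samples were a run of their own, so that in comparisons with PBS the run and the condition cannot be told apart.

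The upstream sequences of the genes that changed most in KA IP are shown here, because the core of the hypoxia response element is known from promoters of genes of sugar metabolism. The sequences are RefSeq windows on GRCm38.p6, plus strand, that end before the first base that GENCODE annotates as part of the gene or, for Slc16a1, before the RefSeq start. Capitals mark ACGTG, 1 form of the core, or its reverse complement CACGT, and a CACGTG counts as a match on each strand. The form GCGTG was not searched and is not marked.
Slc16a1, chr3:104638414-104638663: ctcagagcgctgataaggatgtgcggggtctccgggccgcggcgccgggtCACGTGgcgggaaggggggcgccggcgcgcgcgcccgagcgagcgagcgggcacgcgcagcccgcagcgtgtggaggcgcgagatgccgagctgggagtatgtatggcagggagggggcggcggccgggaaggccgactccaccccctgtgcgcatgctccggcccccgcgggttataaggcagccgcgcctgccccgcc
Pygb, chr2:150786546-150786734: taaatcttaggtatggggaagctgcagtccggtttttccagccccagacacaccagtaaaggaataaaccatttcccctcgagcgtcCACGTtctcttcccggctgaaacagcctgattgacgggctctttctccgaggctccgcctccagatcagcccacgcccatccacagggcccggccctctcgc
Pygm, chr19:6384158-6384398: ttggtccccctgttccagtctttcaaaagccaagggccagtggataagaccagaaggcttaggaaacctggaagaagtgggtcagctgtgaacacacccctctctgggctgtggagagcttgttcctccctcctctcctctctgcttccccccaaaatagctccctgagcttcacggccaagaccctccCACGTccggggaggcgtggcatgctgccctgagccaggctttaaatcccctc
All members but Slc16a7 had a window. In 6 of these 9 the ACGTG form was present in the 250 bases before a RefSeq start (Slc16a1, Slc2a1, Slc16a3, Pygb, Pygm and 1 of the 2 Ldha starts). The windows of Ldha and Slc16a3 lie wholly within the gene as GENCODE annotates it. The ACGTG form was absent from the windows of Gys1, Gbe1 and Ldhb. It was present in 16.6% of all 32851 windows of this length, a share by window, whereas the members were counted by gene. It stood upstream of a gene that rose (Slc16a1) and of genes that fell (Pygb and Pygm), and a match is not evidence of binding.

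In astrocyte ribosome IP, the phosphorylases Pygm and Pygb and the synthase Gys1 were lower after KA than in both controls, and Slc16a1 was higher than in both. Of the 8 members with FPKM above 1 in all 6 libraries, 3 were lower and 1 was higher in KA than in AAV control, where 9.74% of the 9729 tested genes were lower and 10.4% were higher. Against PBS, 4 of 8 were lower and 1 was higher, where 18.9% of the 9847 tested genes were lower and 18.2% were higher. In input, Slc16a1 was the only member to pass. It was higher, against a background of 3.54% higher and 0.944% lower genes for KA with AAV control (10809 tested) and of 15.5% higher and 12.2% lower for KA with PBS (10849 tested). A gene passed at an adjusted p-value under 0.05 in edgeR's quasi-likelihood test. Lower RNA in an IP library can have several causes, fewer cells of a type and less RNA per cell among them, which cannot be told apart here. Marker lists moved in the same comparison with AAV control IP: beside the astrocyte markers given above, 4 of 8 neuron markers (median 1.12) and 3 of 7 oligodendrocyte markers (median 1.64) were higher in KA and none was lower. Their part in the member results was not tested.

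**Figure D1:**
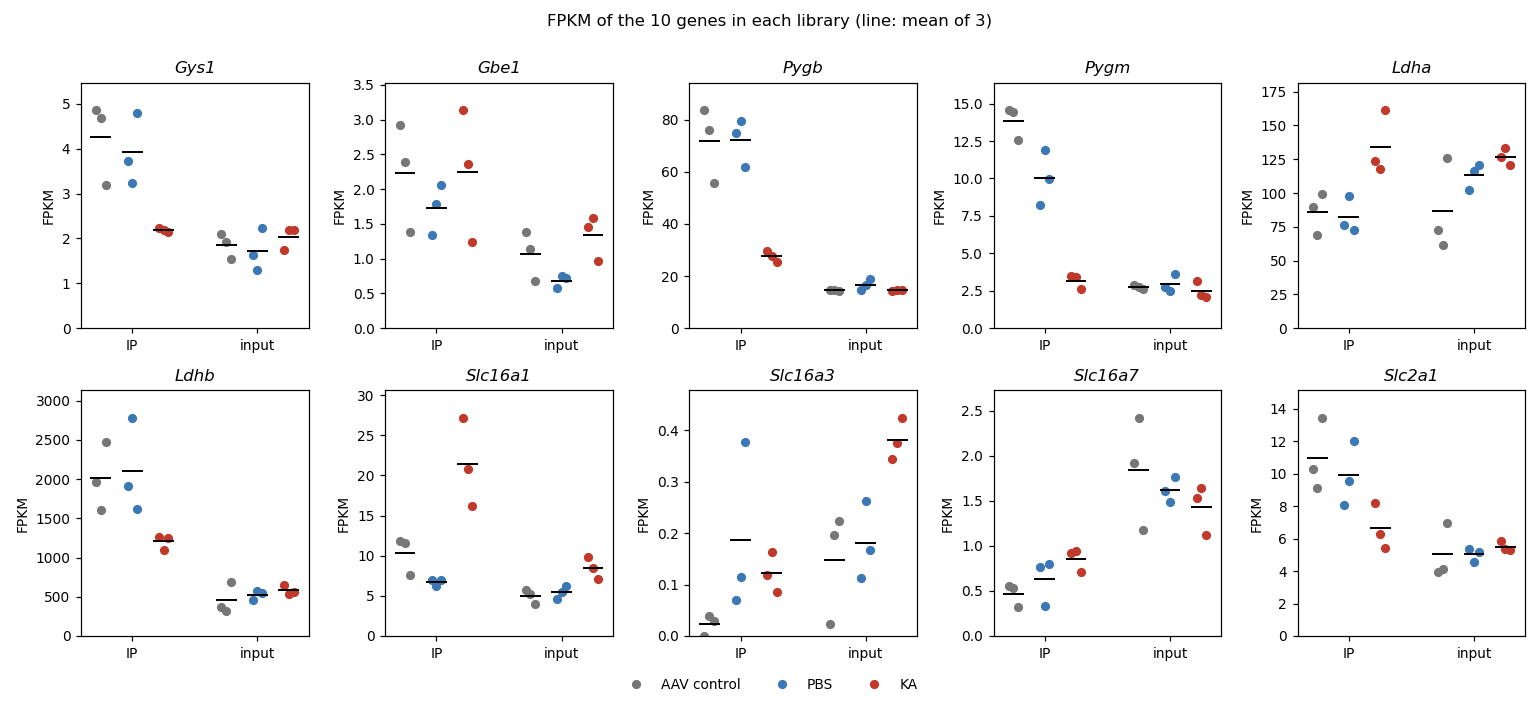
FPKM of each of the 10 genes (vertical axes, linear from 0) in the 18 libraries, with IP libraries on the left and input libraries on the right of each panel; points are samples and lines are means of 3. The 3 KA IP points of Pygm (2.61 to 3.49 FPKM) and Pygb (25.4 to 29.6) lie below all 6 control IP points, and those of Slc16a1 (16.2 to 27.2) lie above them.

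Pygm, the muscle form of glycogen phosphorylase, was at 3.49, 3.40 and 2.61 FPKM in KA IP, at 14.6, 14.4 and 12.5 in AAV control IP and at 8.20, 11.9 and 9.95 in PBS IP. The highest KA sample was thus below the lowest sample of either control. The log2 fold change was -2.08 ± 0.157 (SE, n = 3 and 3; edgeR adjusted p = 0.000348) against AAV control and -1.68 ± 0.225 (adjusted p = 0.000463) against PBS. In input Pygm was at 3.18, 2.22 and 2.07 FPKM in KA and at 2.92, 2.73 and 2.64 in AAV control, so the groups overlapped (log2 fold change -0.15 ± 0.202). The fall in IP was larger than the difference in input, since the IP to input ratio itself was lower in KA by 1.91 ± 0.222 on the log2 scale than in AAV control (edgeR adjusted p = 0.000445). All 3 PBS IP samples of Pygm also lay below all AAV control IP samples, but this difference (-0.41 ± 0.231 log2) did not pass the edgeR test (adjusted p = 0.519).

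Pygb, the brain form of the phosphorylase, was at 29.6, 27.7 and 25.4 FPKM in KA IP, at 83.8, 76.2 and 55.6 in AAV control IP and at 75.0, 79.5 and 61.9 in PBS IP. The KA samples did not overlap with those of either control. Against AAV control the log2 fold change was -1.32 ± 0.179 (edgeR adjusted p = 0.00287) and against PBS it was -1.40 ± 0.219 (adjusted p = 0.00104). In input Pygb was nearly level, at 14.4 to 14.8 FPKM in KA and 14.5 to 14.8 in AAV control (log2 fold change 0.01 ± 0.126). The IP to input ratio of Pygb fell by 1.31 ± 0.188 on the log2 scale against AAV control (edgeR adjusted p = 0.00104) and by 1.22 ± 0.234 against PBS (adjusted p = 0.00255).

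Both phosphorylase transcripts fell in IP, and their ratio differed as well. The Pygm to Pygb ratio of FPKM in KA IP was 0.114 ± 0.0106 (SD, n = 3), against 0.196 ± 0.0265 in AAV control IP, and the groups did not overlap (two-sided exact permutation p = 0.1, the smallest that 3 samples against 3 allow). It was 0.140 ± 0.0270 in PBS IP, which overlapped with KA (exact permutation p = 0.3) and lay below AAV control (exact permutation p = 0.1). In input the ratio was between 0.140 and 0.222 in all 9 libraries and the groups overlapped. With 6 comparisons for each of the 2 isozyme ratios and no p able to go below 0.1, none could pass a correction for multiple tests.

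Gys1, glycogen synthase, was at 2.23, 2.19 and 2.13 FPKM in KA IP, at 4.86, 4.70 and 3.19 in AAV control IP and at 3.73, 3.24 and 4.79 in PBS IP. The KA samples were below all control samples, and close to the KA input samples (1.74, 2.19 and 2.19 FPKM). This gave a log2 fold change of -0.89 ± 0.187 against AAV control (edgeR adjusted p = 0.0152) and -0.82 ± 0.186 against PBS (adjusted p = 0.00645), which was lost without the FPKM filter (-0.62, adjusted p = 0.0634). The call against AAV control rests on few counts (109 to 119 in KA and 196 to 216 in AAV control libraries). It was lost when KA #1 or #2 or AAV control #1 or #2 was left out, with log2 fold changes of -0.86, -0.86, -0.81 and -0.85 and edgeR adjusted p-values of 0.072, 0.0766, 0.0596 and 0.0583. The IP to input ratio of Gys1 was lower in KA by 1.03 ± 0.25 (log2) than in AAV control (edgeR adjusted p = 0.018) and by 1.07 ± 0.265 than in PBS (adjusted p = 0.0102). The ratio call against AAV control was lost without KA #2 or #3 or AAV control #1 or #2 (-0.97 to -1.03, adjusted p from 0.0612 to 0.114) and without the FPKM filter (-0.94, adjusted p = 0.133), but passed with the homogenate as a block (-1.01). The call against PBS was lost without KA #2 (-1.01, adjusted p = 0.055) and without the filter (-0.79, adjusted p = 0.101). The Gys1 locus overlaps Ruvbl2 on the opposite strand, and as strand use in counting is not stated, its counts can include reads of that gene.

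Gbe1, the branching enzyme, passed in neither comparison. It was at 3.14, 2.37 and 1.24 FPKM in KA IP, 2.92, 2.38 and 1.39 in AAV control IP and 1.34, 1.78 and 2.06 in PBS IP. The groups overlapped, and the log2 fold change of KA was 0.07 ± 0.333 against AAV control (edgeR adjusted p = 0.915) and 0.37 ± 0.291 against PBS (adjusted p = 0.346). In input Gbe1 fell below the FPKM limit in at least 1 library of each condition and was not tested. Its input samples were at 1.46, 1.59 and 0.971 FPKM in KA, all above the 0.576, 0.747 and 0.716 in PBS, but overlapping with those of AAV control (1.38, 1.14 and 0.683). Without the FPKM filter, the log2 difference between KA and PBS input was 0.93 and passed.

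Among 24 other glycogen genes, listed from general knowledge, 15 were tested between KA and AAV control in IP, of which 4 fell, none rose and 11 did not pass. Their median log2 fold change was -0.47, beside -0.02 over all genes tested, of which 9.74% fell and 10.4% rose. The gene with the largest fall was Ppp1r3g, a subunit that targets protein phosphatase to glycogen, at -3.13 ± 0.358 (edgeR adjusted p = 0.00144). Phkg1 and Phka1, the catalytic and a regulatory subunit of the phosphorylase kinase that activates phosphorylase, fell by 1.22 ± 0.19 and 0.97 ± 0.235 on the log2 scale (adjusted p = 0.0048 and 0.0247). These 3 genes also fell against PBS, where 6 of 15 glycogen genes were lower and 1 was higher, beside 18.9% and 18.2% of all genes tested. The scaffold Ppp1r3c, another glycogen-targeting phosphatase subunit, had a log2 fold change of -0.47 in IP against AAV control that did not pass (edgeR adjusted p = 0.195), and rose by 1.07 ± 0.125 in input (adjusted p = 0.00345). It was the only one of the 16 glycogen genes tested in KA against AAV control input to pass. Against PBS input 3 of 15 were higher and 1 was lower, beside 15.5% and 12.2% of all genes tested.

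**Figure D2:**
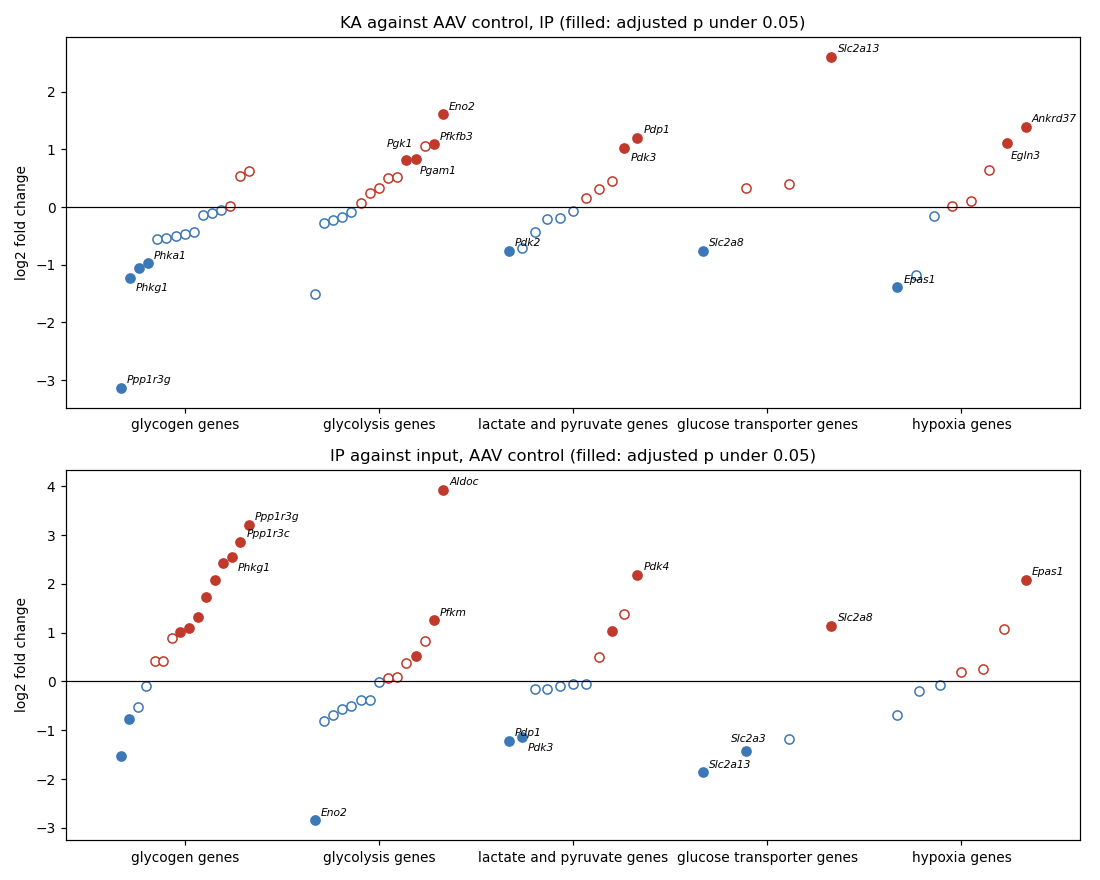
Log2 fold changes (vertical axes) of the genes of 5 pathway lists that passed the FPKM filter, in KA against AAV control IP (top) and in IP against input of the AAV control group (bottom); each point is a gene, filled where the edgeR adjusted p-value was under 0.05, red above 0 and blue below 0. In the glycogen list all 4 filled points of the top panel lie below 0, down to -3.13 for Ppp1r3g, whereas all 4 filled points of the glycolysis list lie above 0; in the bottom panel 9 filled glycogen points lie above 0 and 2 below.

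Ldha, the A subunit of lactate dehydrogenase, was at 124, 117 and 161 FPKM in KA IP, at 89.8, 68.7 and 99.2 in AAV control IP and at 76.3, 97.8 and 72.6 in PBS IP. The KA samples were above all control samples. The log2 fold change of 0.70 ± 0.268 against AAV control and of 0.70 ± 0.272 against PBS did not pass (edgeR adjusted p = 0.105 and 0.0634). KA and AAV control samples share only a number, which coincides in part with the sequencing run. With the replicate number as a block the difference from AAV control was 0.70 and passed (edgeR adjusted p = 0.0103). It also passed without AAV control #3 (0.89, adjusted p = 0.0299) and without the FPKM filter (0.79, adjusted p = 0.0332). It did not pass with DESeq2, library totals or limma voom (adjusted p = 0.0545, 0.0847 and 0.0974), nor without any other sample (edgeR adjusted p from 0.146 to 0.287). The difference from PBS passed with DESeq2 (0.71, adjusted p = 0.0269) and with library totals (0.69, adjusted p = 0.0312). It also passed without the filter (0.89, adjusted p = 0.0236) and without PBS #2 (0.95, adjusted p = 0.0315). It did not pass with limma voom or the replicate block (adjusted p = 0.0622 and 0.121), nor without any other sample (edgeR adjusted p from 0.08 to 0.198).

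Ldhb, the B subunit, was the most abundant member per length in every group. It was at 1267, 1091 and 1255 FPKM in KA IP, at 1963, 1611 and 2479 in AAV control IP and at 1909, 2783 and 1618 in PBS IP. The KA samples were below all control samples. The log2 fold change was -0.70 ± 0.28 against AAV control and -0.83 ± 0.37 against PBS, neither of which passed (edgeR adjusted p = 0.12 and 0.101). With the replicate block the difference from AAV control was -0.67 and passed (adjusted p = 0.0294), and without AAV control #3 it was -0.45 and did not (adjusted p = 0.15). DESeq2 called Ldhb against AAV control (-0.70, adjusted p = 0.0361) and against PBS (-0.83, adjusted p = 0.0123). In edgeR it also passed against PBS with library totals (-0.81, adjusted p = 0.043) and without PBS #3 (-1.04, adjusted p = 0.04). Against AAV control it did not pass with library totals, without the filter or with limma voom (adjusted p = 0.0611, 0.258 and 0.121). Against PBS it did not pass without the filter, with limma voom or with the block (adjusted p = 0.308, 0.0989 and 0.225). Without any other sample it passed against neither control.

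The 2 subunits differed in opposite directions in IP, so their ratio, which does not depend on how libraries are scaled, separated the groups. The Ldha to Ldhb ratio of FPKM was 0.0976, 0.108 and 0.129 in the KA IP samples, 0.0457, 0.0427 and 0.0400 in the AAV control IP samples and 0.0400, 0.0351 and 0.0448 in the PBS IP samples. The mean of 0.111 ± 0.0159 (SD, n = 3) in KA was 2.59 times that of AAV control (0.0428 ± 0.00285) and 2.78 times that of PBS (0.0400 ± 0.00485). The groups did not overlap, and the exact permutation p was 0.1 for each, the smallest that this design allows. In input the mean ratio was 0.220 ± 0.0290 in KA, 0.193 ± 0.0102 in AAV control and 0.215 ± 0.0121 in PBS, and KA overlapped with both, whereas every PBS sample was above every AAV control sample (exact permutation p = 0.1). The IP ratio in KA thus lay between the control IP and the input ratios. Neuron markers, as a list of 8, summed to between 308 and 373 FPKM in KA IP, 143 to 175 in AAV control IP and 141 to 240 in PBS IP, and none was at 0. Their part in the ratio was not tested.

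**Figure D3:**
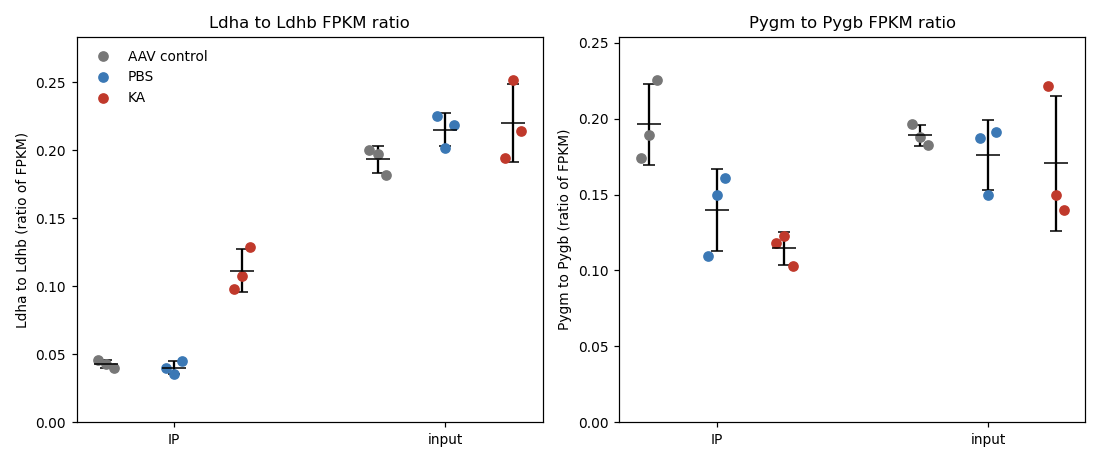
Ratio of Ldha to Ldhb FPKM (left) and of Pygm to Pygb FPKM (right) in each library, with IP and input libraries apart; points are samples, and bars are the mean and SD of 3. The KA IP points of Ldha to Ldhb (0.0976 to 0.129) lie above all control IP points (0.0351 to 0.0457) and below all input points.

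In input, the level of both subunits depended on AAV control #3. Ldha was at 126.5, 133 and 120.4 FPKM in KA, 72.9, 61.8 and 126 in AAV control and 102, 117 and 120.5 in PBS. Ldhb was at 650.1, 529 and 563 FPKM in KA, 363, 313 and 693 in AAV control and 455, 578 and 552 in PBS. In AAV control, sample #3 was thus high for both genes and the other samples were low. With all samples the KA difference from AAV control was 0.52 ± 0.294 (log2) for Ldha and 0.32 ± 0.337 for Ldhb, and neither passed (edgeR adjusted p = 0.418 and 0.694). Without AAV control #3 the log2 differences were 0.97 and 0.84 and both passed (adjusted p = 0.00111 and 0.00545), and within run 1 they were 0.95 and 0.81. Without the same sample, PBS input also differed from AAV control input, by 0.83 for Ldha and by 0.72 for Ldhb (edgeR adjusted p = 3.41e-05 and 0.000346), and by 0.26 for Pygb (adjusted p = 0.0248).

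Of 16 glycolysis genes, 15 were tested in IP between KA and AAV control. Of these 4 rose, none fell and 11 did not pass (median log2 fold change 0.32), where 10.4% of all genes tested rose and 9.74% fell. The sum of the 16 genes did not rise. It was 3174 to 4304 FPKM in KA IP, 3663 to 9273 in AAV control IP and 5517 to 9584 in PBS IP. Eno2, the neuronal form of enolase, rose by 1.61 ± 0.176 (edgeR adjusted p = 0.00121). Pfkfb3, which makes the activator of phosphofructokinase, rose by 1.09 ± 0.172 (adjusted p = 0.0051), and was the only one of the 15 to pass in KA against AAV control input as well (1.15 ± 0.141, adjusted p = 0.00455). Against PBS input 1 of 15 was higher and 1 was lower, beside 15.5% and 12.2% of all genes tested. Pgk1 and Pgam1, which act in the steps between triose phosphate and enolase, rose by 0.82 ± 0.172 and 0.83 ± 0.242 (adjusted p = 0.015 and 0.0473). These 4 genes also rose against PBS, where 1 gene, Aldoc, fell, and where 18.2% of all genes tested rose and 18.9% fell. Eno2 was 2.85 lower on the log2 scale in IP than in input of the AAV control group, and the neuron marker sums given above moved the same way as Eno2 in KA IP. Their part in the rise was not tested. Aldoc, the aldolase of astrocytes, had a log2 fold change of -1.51 ± 0.469 in KA IP against AAV control that did not pass (adjusted p = 0.0581) and of -1.91 ± 0.513 against PBS that did (adjusted p = 0.0148).

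Of 16 other lactate and pyruvate genes, 11 were tested in KA against AAV control IP, of which 2 rose and 1 fell (median -0.07). This was beside 10.4% higher and 9.74% lower among all genes tested. Pdp1, a phosphatase that activates pyruvate dehydrogenase, rose by 1.20 ± 0.172 (edgeR adjusted p = 0.00363). Of the kinases that inhibit this enzyme, Pdk3 rose by 1.03 ± 0.279 (adjusted p = 0.0369) and Pdk2 fell by 0.76 ± 0.214 (adjusted p = 0.0421). Pdk4, another of these kinases, had a log2 fold change of -0.71 that did not pass (adjusted p = 0.0549). In the AAV control group Pdp1 and Pdk3 were lower in IP than in input (log2 difference -1.22 ± 0.175 and -1.15 ± 0.361), whereas Pdk4 was higher (2.18 ± 0.263). The part of other cell types in the rise of Pdp1 and Pdk3 was not tested. Against PBS, 2 of 11 rose and 1 fell, beside 18.2% and 18.9% of all genes tested. In input none of the 12 genes tested passed against AAV control in edgeR. Against PBS input 1 of 11 was higher and 2 were lower, beside 15.5% and 12.2% of all genes tested.

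Slc16a1, encoding the lactate and ketone body carrier MCT1, was at 27.2, 20.8 and 16.2 FPKM in KA IP, at 11.9, 11.6 and 7.58 in AAV control IP and at 6.97, 6.25 and 7.04 in PBS IP. The lowest KA sample was above the highest sample of either control. Slc16a1 thus rose by 1.10 ± 0.208 on the log2 scale against AAV control (edgeR adjusted p = 0.0106) and by 1.65 ± 0.187 against PBS (adjusted p = 0.000173). In input Slc16a1 was at 9.78, 8.44 and 7.07 FPKM in KA, at 5.77, 5.25 and 3.93 in AAV control and at 4.65, 5.50 and 6.29 in PBS. The KA samples were again above all control samples, with log2 fold changes of 0.77 ± 0.158 (adjusted p = 0.0357) and 0.61 ± 0.12 (adjusted p = 0.00433). The input call against AAV control was lost when any sample but AAV control #3 was left out (log2 fold changes 0.68 to 0.84, edgeR adjusted p from 0.0624 to 0.197) and with library totals in place of TMM factors (0.77, adjusted p = 0.0839). It held under the replicate block and within run 1. Choroid plexus markers, as a list of 4, varied between input samples, with sums of 2486 to 4479 FPKM in KA, 16.03 to 2980 in AAV control and 18.5 to 289.9 in PBS, and of 3.22 to 66.0 in IP.

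Whether Slc16a1 rose more in IP than in input depended on the control. The IP to input ratio was 0.36 ± 0.259 (log2) higher in KA than in AAV control, which did not pass (edgeR adjusted p = 0.432), and 1.04 ± 0.218 higher than in PBS, which passed (adjusted p = 0.00438). Oligodendrocyte markers moved with Slc16a1 in IP: 3 of 7 were higher in KA than in AAV control and 7 of 7 were higher than in PBS. The 7 markers summed to 2531, 1759 and 1336 FPKM in KA IP, in the same order of samples as Slc16a1, against 252 to 1060 in AAV control IP and 280 to 567 in PBS IP, and none was at 0. In input they summed to between 750.2 and 956 FPKM in KA and between 758 and 918 in AAV control, and none passed between these groups. AAV control IP #3 had the highest oligodendrocyte sum of the controls (1060) and the lowest Slc16a1 level of its group (7.58 FPKM). Endothelial markers, as a list of 8, were low in all IP libraries, and summed to between 4.64 and 6.45 FPKM in KA IP, 11.2 to 17.1 in AAV control IP and 6.36 to 19.8 in PBS IP. In input the endothelial sum was 48.3 to 64.4 FPKM in KA, 40.1 to 52.8 in AAV control and 37.6 to 43.7 in PBS. The part of other cell types in the Slc16a1 result was not tested.

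Sequencing run 1 held samples #1 and #2 of KA and of AAV control, and run 2 held 1 sample of each and gave no value of its own. Within run 1 the KA difference from AAV control in IP was -2.01 for Pygm, -1.42 for Pygb, -1.05 for Gys1 and 1.10 for Slc16a1 on the log2 scale, and all 4 passed, as did Ldha (0.67) and Ldhb (-0.54). In input it was 0.73 for Slc16a1, which passed, and between -0.06 and -0.01 for Pygm, Pygb and Gys1.

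**Figure D4:**
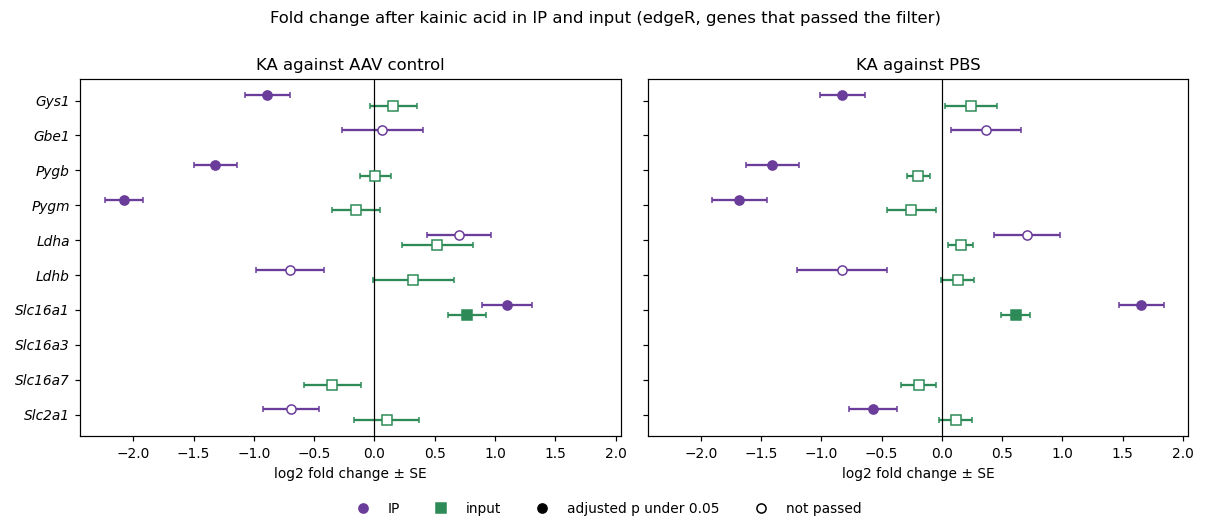
Log2 fold changes ± SE of KA against AAV control (left) and against PBS (right) in IP (circles) and input (squares), for the genes that passed the FPKM filter in the comparison; filled symbols had an edgeR adjusted p-value under 0.05. Pygm, Pygb and Gys1 have filled IP symbols below 0 and open input symbols near 0, and Slc16a1 has filled symbols above 0 in both kinds of library.

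Slc16a7, encoding the high-affinity carrier MCT2, was the only one of the 10 genes with a lower FPKM in IP than in input in all 9 homogenates. It was at 0.918, 0.949 and 0.709 FPKM in KA IP, 0.556, 0.530 and 0.323 in AAV control IP and 0.764, 0.333 and 0.797 in PBS IP, under the FPKM limit and therefore not tested. The KA samples were above all AAV control samples and overlapped with PBS. Without the FPKM filter the log2 difference from AAV control was 1.01 (edgeR adjusted p = 0.011), and that from PBS was 0.67 (adjusted p = 0.0663). In input Slc16a7 was at 1.53, 1.64 and 1.13 FPKM in KA, 1.92, 2.42 and 1.18 in AAV control and 1.61, 1.48 and 1.76 in PBS. The groups overlapped, and the log2 fold change against AAV control was -0.35 ± 0.24 (edgeR adjusted p = 0.521). Without AAV control #3 it was -0.56 and passed (adjusted p = 0.0456). The IP to input ratio of FPKM was 0.599, 0.579 and 0.629 in KA and 0.289, 0.219 and 0.275 in AAV control. These did not overlap. The neuron marker sums given above were likewise higher in KA IP, and their part was not tested.

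Slc16a3, encoding the low-affinity carrier MCT4, was near the limit of detection and was tested in no comparison. IP libraries held 7, 9 and 5 counts in KA, 0, 2 and 2 in AAV control and 6, 7 and 21 in PBS, where a count of 0 allows an expected count of up to 3. Input libraries held 18, 19 and 23 counts in KA, 1, 10 and 15 in AAV control and 6, 15 and 9 in PBS. In input the KA samples (0.343, 0.375 and 0.424 FPKM) were above all control samples, of which the highest was at 0.262 FPKM. The microglia markers of input, as a list of 7, summed to between 646 and 1167 FPKM in KA against 72.7 to 111 in AAV control and 84.2 to 90.0 in PBS. Their part was not tested.

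Slc2a1, encoding GLUT1, was at 8.20, 6.30 and 5.44 FPKM in KA IP, at 10.3, 9.10 and 13.4 in AAV control IP and at 8.10, 9.54 and 12.04 in PBS IP. The KA samples were below all AAV control samples, and KA #1 overlapped with PBS. The log2 fold change was -0.57 ± 0.197 against PBS, which passed (edgeR adjusted p = 0.0419), and -0.69 ± 0.236 against AAV control, which did not (adjusted p = 0.0756). With the replicate block the difference from AAV control was -0.66 and passed (adjusted p = 0.0459), as it did with DESeq2 (-0.69, adjusted p = 0.0461), and within run 1 it was -0.35 and did not (adjusted p = 0.0872). The call against PBS was lost without KA #2 or #3 or PBS #2 or #3 (log2 fold changes -0.49 to -0.51, edgeR adjusted p from 0.101 to 0.155), with library totals (-0.59, adjusted p = 0.0999) and without the FPKM filter (-0.36, adjusted p = 0.301). The IP to input ratio was lower by 0.69 ± 0.229 (log2) in KA than in PBS (edgeR adjusted p = 0.0407) and by 0.78 ± 0.375 than in AAV control, which did not pass (adjusted p = 0.207) but did under the block (-0.81, adjusted p = 0.00377). The ratio call against PBS was lost when any sample but PBS #1 was left out (-0.52 to -0.80, adjusted p from 0.0552 to 0.192), with library totals (-0.72, adjusted p = 0.0938) and without the filter (-0.42, adjusted p = 0.465). Of the 8 endothelial markers 2 were tested in IP, of which 1 was lower in KA than in each control. The endothelial sums given above were lower in KA IP than in AAV control IP, and their part in the Slc2a1 difference was not tested. In input Slc2a1 was at 5.31 to 5.84 FPKM in KA and 3.93 to 6.98 in AAV control (log2 fold change 0.10 ± 0.269). Without AAV control #3 this was 0.50 and passed (adjusted p = 0.0368).

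Of 10 other glucose transporter genes, 4 were tested in KA against AAV control IP. Slc2a13, a proton and myo-inositol carrier of this family, rose by 2.60 ± 0.228 (edgeR adjusted p = 0.000502). In the AAV control group Slc2a13 was lower in IP than in input (log2 difference -1.86 ± 0.18), and the part of other cell types in its rise was not tested. Slc2a8 (GLUT8) fell by 0.76 ± 0.218 (adjusted p = 0.0443), and was higher in IP than in input of the AAV control group (1.15 ± 0.254). Slc2a3, the neuronal GLUT3, was 1.43 lower on the log2 scale in IP than in input of the AAV control group, and its KA difference in IP was 0.33 ± 0.247 (adjusted p = 0.398). Of 11 hypoxia genes, 8 were tested in this comparison, of which 2 rose and 1 fell (median 0.06), whereas 3 rose and 2 fell against PBS. Of all genes tested, 10.4% rose and 9.74% fell against AAV control IP, and 18.2% rose and 18.9% fell against PBS IP. Ankrd37 and Egln3, known targets of hypoxia-inducible factors, rose by 1.39 ± 0.263 and 1.12 ± 0.23 (edgeR adjusted p = 0.0106 and 0.0142). Epas1, which encodes the factor HIF-2 alpha, fell by 1.39 ± 0.241 (adjusted p = 0.00738).

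Between the controls, PBS and AAV control, no member passed in IP, in input or in the IP to input ratio. In edgeR, 0% of genes passed in either direction in these comparisons (of 10667, 10924 and 9597 tested), with 1153, 901 and 399 genes at an unadjusted p under 0.05, of which 1, 0 and 1 were members. DESeq2 called 16, 30 and 6 genes, none of them a member. The member with the largest IP difference was Slc16a1 (-0.57 ± 0.211 log2), which was lower in all 3 PBS samples than in any AAV control sample, and which passed at -0.71 without AAV control #3.

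The ratio of IP to input showed which members were enriched in the ribosome IP. In the AAV control group 6 of the 7 members tested were higher in IP than in input and none was lower. Of the 9961 tested genes, 19.4% were higher and 20.3% were lower. Slc16a7, Slc16a3 and Gbe1 were left out by the FPKM limit. Without the filter Slc16a7 was lower in IP (log2 difference -1.80, edgeR adjusted p = 2.12e-07) and Gbe1 was higher (1.24, adjusted p = 0.00143). Both also passed in PBS (-1.35 and 1.37), whereas in KA Gbe1 passed (1.05) and Slc16a7 did not (-0.43, adjusted p = 0.15). In the PBS group the same 6 were higher, of which Slc16a1 (0.44 ± 0.151 log2) was lost without PBS #1 or #2 (0.32 and 0.37), with library totals (0.31) and without the FPKM filter (0.35), with 28.6% higher and 27.7% lower among 10401 genes. In the KA group 4 were higher (Pygb, Ldhb, Slc16a1 and Slc2a1), of which Slc2a1 (0.48 ± 0.145) was lost without KA #1 or #2 (0.34 and 0.48) and with library totals (0.26), with 19.1% higher and 15.3% lower among 10098 genes. With library totals in place of TMM factors the split of the calls in the KA group moved from 55.6% higher to 29.6% higher. The median of all genes then moved by -0.16, -0.11 and -0.23 on the log2 scale in the AAV control, PBS and KA groups, so that IP to input ratios are relative to the scaling used.

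Pygb, Pygm and Ldhb had the highest ratios in the AAV control group. The ratio of FPKM of the 3 homogenates was 5.65, 5.24 and 3.84 for Pygb, between 4.74 and 5.28 for Pygm and 5.40, 5.15 and 3.58 for Ldhb. The log2 IP to input differences were 2.44 ± 0.181 (edgeR adjusted p = 0.000127), 2.47 ± 0.15 (adjusted p = 0.000102) and 2.29 ± 0.419 (adjusted p = 0.00413). Gys1 (1.34 ± 0.196), Slc2a1 (1.27 ± 0.329) and Slc16a1 (1.20 ± 0.195) followed, with ratios between 1.93 and 2.62 in every homogenate. The ratios of these 3 members overlapped. Ldha was about level in IP and input, at 1.23, 1.11 and 0.789 (0.13 ± 0.346 log2, adjusted p = 0.802). Without AAV control #1 the calls of Ldhb (2.16), Slc16a1 (1.19) and Slc2a1 (1.16) were lost, and 3 of 6 remained. Without #2 that of Slc2a1 (1.29) was lost, and without #3 Ldha (0.40) passed, whereas with the homogenate as a block all 6 passed. Gbe1, which was not tested, had ratios of 2.12, 2.10 and 2.03. Of the 16 other glycogen genes tested, 9 were higher in IP than in input in the AAV control group and 2 were lower (median log2 difference 1.06), against 8 and 2 in the KA group (median 0.32). Ppp1r3g was 3.21 ± 0.323 higher in AAV control (edgeR adjusted p = 0.000278) and 0.23 ± 0.337 in KA, which did not pass (adjusted p = 0.628). Ppp1r3c was 2.86 ± 0.246 and 1.34 ± 0.113 higher, and Phkg1 was 2.55 ± 0.202 and 0.93 ± 0.136 higher, in AAV control and KA. Aldoc was the glycolysis gene with the highest difference, at 3.93 ± 0.691 in AAV control and 1.98 ± 0.256 in KA.

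In the KA group the ratios of Pygm, Pygb and Gys1 were closer to 1, and those of Gbe1 (2.15, 1.49 and 1.28) overlapped with AAV control. Those of Pygm were 1.10, 1.53 and 1.26 and those of Gys1 were 1.29, 0.997 and 0.974, all below every control homogenate. Pygm was 0.56 ± 0.19 (log2) higher in IP than in KA input, which did not pass (edgeR adjusted p = 0.0509) and did with the homogenate as a block (0.57, adjusted p = 0.0165). Ldhb, at ratios of 1.95, 2.06 and 2.23, was also below every control homogenate. The highest ratios were those of Slc16a1, at 2.78, 2.47 and 2.29 (1.55 ± 0.164 log2, adjusted p = 0.000287). The order of the members by ratio thus differed from that of the AAV control group, where Slc16a1 was below Pygb, Pygm and Ldhb in every homogenate.

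**Figure D5:**
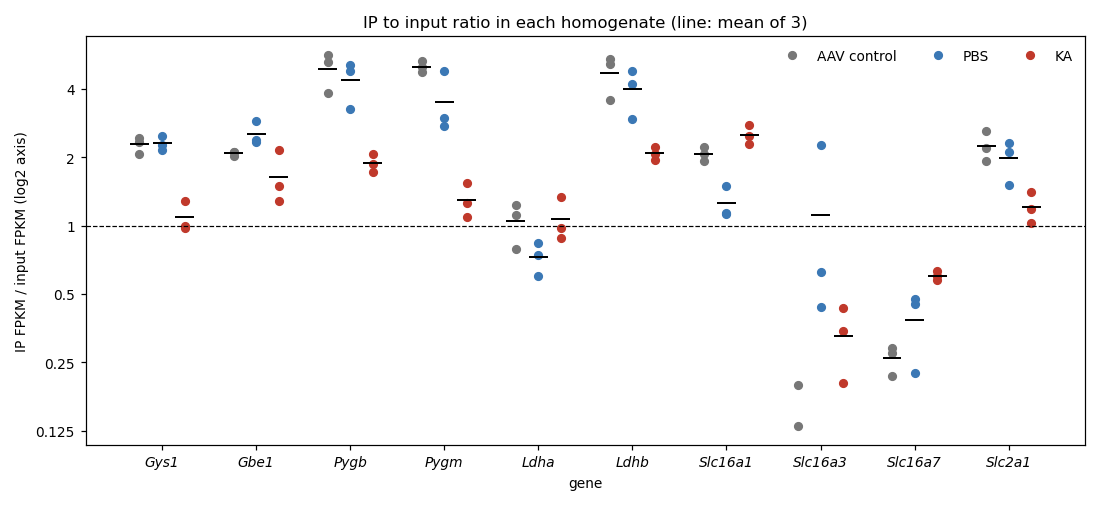
FPKM in IP divided by FPKM in the input of the same homogenate (vertical axis, log2 scale; dashed line at 1) for the 10 genes, by condition; points are homogenates and lines are means of 3. The AAV control homogenate with 0 counts of Slc16a3 in IP is not drawn, nor the mean of that group; the KA points of Pygm, Pygb, Ldhb and Gys1 lie below all control points of these genes.

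Tested directly, the ratio differed between KA and AAV control for 3 of 7 members, all lower in KA (Gys1, Pygb and Pygm), where 5.99% of the 9180 tested genes were lower and 7.19% were higher. With the homogenate as a block 5 were lower, with Ldhb (-1.09, edgeR adjusted p = 0.00233) and Slc2a1 added. The same 2 passed without AAV control #3 (-1.25 and -0.90, adjusted p = 0.00512 and 0.0114). Between KA and PBS, Gys1, Pygb, Pygm and Slc2a1 were lower and Slc16a1 was higher, where 14.7% of 9305 genes were lower and 10.8% were higher. Ldhb was lower by 0.97 ± 0.38 (adjusted p = 0.0735) and passed with the block (6 members in all). Slc16a7 was left out of both comparisons by the FPKM limit. Without the filter its ratio was higher in KA by 1.38 than in AAV control (edgeR adjusted p = 0.00434) and by 0.92 than in PBS (adjusted p = 0.034). The AAV control and PBS comparisons share the KA samples. In KA input, astrocyte markers summed to between 953 and 1040 FPKM against 379 to 395 in AAV control. Of the 9 markers, 4 were higher in KA input than in AAV control input and 8 than in PBS input. The IP to input ratio of the astrocyte markers was itself lower in KA, for 7 of 9 against AAV control (median log2 difference -1.34) and for 6 of 9 against PBS (median -1.29). The part of the markers in the ratios was not tested.

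By level per length, Ldhb and Ldha were first and second in every group, and Slc16a3 was last. In AAV control IP, Ldha and Pygb were next to each other and overlapped (68.7 to 99.2 and 55.6 to 83.8 FPKM), as did Pygm with Slc2a1 and Slc2a1 with Slc16a1. In KA IP, Slc16a1 had moved next to Pygb, with overlapping samples, and Pygm next to Gbe1 and Gys1, which overlapped as well.

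Genes whose log2(FPKM + 1) was among the 3 most alike to that of each member over the 18 libraries were named as a description, since the libraries share conditions, scaling and homogenates. For Pygb they were Bcan, Fads1 and S1pr1 (Pearson r 0.991, 0.988 and 0.987), for Pygm Acss2, Nat8f1 and Gm40578 (0.979, 0.977 and 0.976), and for Ldhb Gstm1, Aldoc and Lcat (0.991, 0.989 and 0.989). For Slc16a1 they were Prss23, Mrps6 and Odc1 (0.966, 0.966 and 0.963). For Ldha they were Slc25a4, Mdh2 and Psma5 (0.927, 0.919 and 0.918), for Gys1 Gm32618, Mgme1 and Prkd1 (0.962, 0.956 and 0.948), and for Gbe1 Derl2 and Nudcd2 (0.964 and 0.954). For Slc2a1 they were Cyp2j9, Dnaic1 and Scrn2 (0.941, 0.939 and 0.937), for Slc16a7 Arfgef3, Rgmb and Plppr4 (0.975, 0.974 and 0.973), and for the scarce Slc16a3 Ctc1 and Rnase4 (0.834 and 0.797).

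The loci are given on GRCm38 from GENCODE, matched by symbol. Gys1 (ENSMUSG00000003865.16) is at chr7:45434844-45456619, Gbe1 (ENSMUSG00000022707.16) at chr16:70313949-70569716, Pygb (ENSMUSG00000033059.7) at chr2:150786735-150831758 and Pygm (ENSMUSG00000032648.14) at chr19:6384399-6398459. Ldha (ENSMUSG00000063229.15) is at chr7:46841475-46855627 and Ldhb (ENSMUSG00000030246.11) at chr6:142490249-142507957. Slc16a1 (ENSMUSG00000032902.1) is at chr3:104638668-104658462, Slc16a3 (ENSMUSG00000025161.16) at chr11:120948480-120960868, Slc16a7 (ENSMUSG00000020102.15) at chr10:125219270-125389465 and Slc2a1 (ENSMUSG00000028645.11) at chr4:119108711-119137983. Besides Gys1, 3 of these loci overlap other annotated genes: Slc16a1 holds 2 sense-intronic genes, Slc16a7 has 2 genes on the opposite strand, and Slc2a1 overlaps a microRNA gene and 2 antisense genes.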

How the data were processed

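Reads were mapped by the authors to mm10 using STAR; featureCounts and edgeR are named in their processing notes without a version, and their methods give edgeR and limma voom for differential expression. For each of the 18 libraries the deposited data are raw counts and FPKM per symbol. For all 10 members the deposited FPKM is the count over library total and 1 length common to all libraries. Strand setting, annotation release and the handling of multi-mapping reads are not given in the sources used here. Of the 55291 symbols, 53292 (96.4%) matched GENCODE on GRCm38. Library totals of 7991681 to 16032180 counts set the counting error, and a count of 0 allows an expected count of up to 3.

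Groups were taken from the labels. Tests of the counts used the quasi-likelihood method of edgeR 4.0.16 under R 4.3.3 (TMM factors, Benjamini-Hochberg over all genes tested), with FPKM above 1 in every compared library and a call at an adjusted p-value under 0.05. The standard error is the log2 fold change over the root of its F value. Differences of IP to input ratios were contrasts over 12 libraries. Isozyme ratios were compared with two-sided exact permutation tests. Samples are pools of animals, so p-values between conditions measure the spread between pools. The main tests of IP against input and of their ratio took IP and input libraries of 1 homogenate as independent. Only the block paired them. The scripts were tested on simulated data. Alternatives were DESeq2 1.42.0, limma 3.58.1 voom, library totals, no FPKM filter, leaving out each sample, the replicate number as a block, and the run as a covariate or run 1 alone.

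IP and input of 1 number come from the same homogenate, with residual correlations between 0.155 and 0.752. KA and AAV control samples share only a number, and those of 1 number were taken as pairs in the block. Their residuals correlated in every pair (0.348 to 0.551). Different numbers were not compared, and the numbers coincide in part with the sequencing run, so this does not show a pairing. Between PBS samples and same-numbered samples of the other groups the correlations were between -0.294 and 0.354. No libraries of a group agreed within counting noise (differences 4.48 to 109 times its variance). Samples #1 and #2 of KA and of AAV control were more alike (4.48 to 9.59) than either was to #3 (39.6 to 109). Results within run 1 or without AAV control #3 rest on these closer pairs.

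The members, the pathway and marker lists and the tests were chosen with earlier results of these data known. The genes named were all 10 members, from each pathway list up to 4 genes with the smallest p in KA against AAV control IP and up to 3 in IP against input of the AAV control group among those that passed, and the 3 genes most correlated with each member; a few genes that this rule gives are not reported here. Macrophage and choroid plexus markers were also listed; no macrophage marker was tested, and they summed to at most 0.651 FPKM in IP and 2.58 in input. Promoter windows are from RefSeq on GRCm38.p6, with 9 of 10 members matched.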

Additional observations from a re-analysis of the deposited data

Results flagged for a closer look

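The change of the IP to input ratio between conditions passed the edgeR test for 5 of the 7 members tested. This is the same as a KA effect that differed between IP and input libraries. Of all genes tested, 5.99% were lower and 7.19% were higher against AAV control, and 14.7% and 10.8% against PBS. Against AAV control the log2 ratio was lower in KA by 1.03 for Gys1 (-1.03), by 1.31 for Pygb (-1.31) and by 1.91 for Pygm (-1.91). Against PBS it differed by -1.07 for Gys1, -1.22 for Pygb, -1.43 for Pygm and -0.69 for Slc2a1, and by 1.04 for Slc16a1. Every KA homogenate lay below every control homogenate for Gys1, Pygb and Pygm. For Slc2a1 every KA homogenate lay below every PBS homogenate, and for Slc16a1 every KA homogenate lay above every PBS homogenate. The ratio of the astrocyte markers was lower in KA as well, with a median log2 difference of -1.34 against AAV control and -1.29 against PBS. Their part in the member ratios was not tested. The 2 baselines share the KA samples.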

How the results depend on the processing

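Member counts under the alternatives are given here without the share of all genes called, so a change in them does not set the members apart. The number of members called was within 1.5 times that reported under the other alternatives. In KA against AAV control IP it was 7 of 8 instead of 4 both with the replicate block and with the run as a covariate, which added Ldha, Ldhb and Slc2a1 to the 4 that remained. In KA against AAV control input it was 0 with library totals, 5 within run 1, and 0 to 5 when a sample was left out, where 5 was reached without AAV control #3. In KA against PBS input it was 2 without the FPKM filter (Gbe1 added) and 1 to 2 with a sample left out (Pygb added without KA #3). In PBS against AAV control it was 0 to 1 in IP and 0 to 3 in input with a sample left out, the higher counts coming without AAV control #3. For IP against input in the AAV control group it was 3 to 8, with 3 without sample #1. Without the FPKM filter Slc16a7 was among these calls, as lower in IP. For the IP to input ratio between KA and AAV control it was 5 with the replicate block, 5 within run 1 and 2 to 5 with a sample left out, and between KA and PBS it was 3 to 5, with 3 without KA #2, where Gys1 and Slc2a1 were lost. The cause was not tested. KA and PBS samples likewise share only numbers (residual correlations from -0.294 to 0.106). With that replicate block 4 members instead of 5 passed in IP, Slc2a1 being lost. No called member changed sign. Of 582 values of single members under an alternative, 490 kept their side of the threshold, 43 lost it and 49 gained it. The split of all calls in KA against AAV control input moved from 79.0% to 66.4% higher with DESeq2. The blocks changed no other call than those given here and in the report. Low counts limited Slc16a3, whereas Slc16a7 in IP and Gbe1 in input were left out of the main tests by the FPKM limit.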
